A study of Homo sapiens with 9 samples.

Results

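The 9 enzymes PHGDH, PSAT1, PSPH, SHMT1, SHMT2, MTHFD1, MTHFD2, MTHFD1L and ALDH1L2 make serine from glucose carbon and pass carbon from it to folate. They were taken by symbol from the 22587 genes for which expression was deposited, and all 9 were found there. RNA-seq was done on HepG2, a widely used human cell line derived from a liver tumor, grown in high-glucose DMEM with 10% fetal bovine serum. The 3 groups were cells with Gln added (the controls), cells deprived of Gln (glutamine) for 12 h and cells deprived of Gln for 24 h, with 3 libraries each. GlutaMAX, a stable dipeptide source of Gln, is listed in the labels as the treatment of the cultures with Gln added, whereas by the treatment protocol and the methods the deprivation medium contained it, so the composition of the deprived medium is uncertain. All libraries came from a single cell line, and because the labels do not say that replicates were grown as separate cultures, p-values measure the spread between these libraries, which may be technical.

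Serine synthesis runs in the cytosol. PHGDH oxidises the glycolytic intermediate phosphoglycerate, PSAT1 transfers an amino group to the product from glutamate, which cells make from Gln, and PSPH removes the phosphate to leave serine. Serine hydroxymethyltransferase then splits serine into glycine and a carbon unit carried by tetrahydrofolate. The folate reactions exist in parallel in both compartments. In mitochondria SHMT2 loads the unit, MTHFD2 oxidises it and MTHFD1L releases it as formate, which leaves for the cytosol. In the cytosol MTHFD1 joins formate to tetrahydrofolate and carries out the corresponding oxidation and reduction steps, and SHMT1 catalyses the cytosolic serine and glycine reaction. ALDH1L2 burns the formyl unit to carbon dioxide with formation of NADPH in mitochondria, as ALDH1L1 does in the cytosol. The cytosolic carbon units are used to build purines and thymidylate, and ATF4, a transcription factor of the amino acid stress response, is known to drive several of these genes.

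The genes lie on 8 chromosomes, with positions from GENCODE v44 on GRCh38. PHGDH is at chr1:119648411-119744218, PSAT1 at chr9:78297125-78330093 and PSPH on the minus strand at chr7:56011051-56051604. SHMT1 is on the minus strand at chr17:18327860-18363563 and its mitochondrial counterpart SHMT2 at chr12:57229573-57234935. MTHFD1 is at chr14:64388031-64463457, MTHFD2 at chr2:74186172-74217565 and MTHFD1L at chr6:150865679-151101887. ALDH1L2, on the minus strand at chr12:105019784-105107643, shares a chromosome with SHMT2 and no others of the 9 do.

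Promoter sequence was available from RefSeq (GRCh38.p14) for 6 of the 9 genes. PSPH, SHMT2 and ALDH1L2 had no entry. Each entry covered 250 bases before to 50 bases after a transcript start and was searched on both strands for TGATGNAA, the core of the amino acid response element bound by ATF4 with a C/EBP partner, and for CACGTG, the E-box bound by MYC and related factors. The motifs do not overlap each other. TGATGNAA was found in MTHFD1L alone among the 6, and CACGTG in MTHFD1L and MTHFD1. In comparison, 3.62% of 35116 promoter entries held TGATGNAA and 7.26% held CACGTG. Over the 13652 entries of genes tested here the shares were 1.97% and 9.49%. A match is a description of letters and not evidence of binding. The 250 bases before the start are shown for 2 enzymes that rose, MTHFD1L and MTHFD2, and the 2 that fell, MTHFD1 and SHMT1, because the mitochondrial and cytosolic arms moved in opposite directions in these cells. They are read 5′ to 3′ on the strand of the gene, with both motifs in capitals. The MTHFD1L stretch is chr6:150866197-150866446, the MTHFD2 stretch chr2:74198365-74198614, the MTHFD1 stretch chr14:64388103-64388352 and the SHMT1 stretch, on the minus strand, chr17:18363551-18363800.
MTHFD1L: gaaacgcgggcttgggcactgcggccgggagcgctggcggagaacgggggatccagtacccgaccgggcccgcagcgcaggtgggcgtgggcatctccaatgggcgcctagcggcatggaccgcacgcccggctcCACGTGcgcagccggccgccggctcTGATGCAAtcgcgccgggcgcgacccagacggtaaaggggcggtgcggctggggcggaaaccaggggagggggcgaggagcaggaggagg
MTHFD2: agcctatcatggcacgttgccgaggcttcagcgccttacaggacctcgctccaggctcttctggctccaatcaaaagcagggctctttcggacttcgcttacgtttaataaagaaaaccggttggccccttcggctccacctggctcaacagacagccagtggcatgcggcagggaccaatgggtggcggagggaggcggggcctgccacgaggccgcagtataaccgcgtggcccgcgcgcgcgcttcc
MTHFD1: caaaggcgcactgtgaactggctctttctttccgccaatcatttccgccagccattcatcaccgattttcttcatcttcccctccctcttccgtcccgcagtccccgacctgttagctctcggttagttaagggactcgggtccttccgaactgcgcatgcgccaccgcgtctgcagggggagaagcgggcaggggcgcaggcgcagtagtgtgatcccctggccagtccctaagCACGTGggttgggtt
SHMT1: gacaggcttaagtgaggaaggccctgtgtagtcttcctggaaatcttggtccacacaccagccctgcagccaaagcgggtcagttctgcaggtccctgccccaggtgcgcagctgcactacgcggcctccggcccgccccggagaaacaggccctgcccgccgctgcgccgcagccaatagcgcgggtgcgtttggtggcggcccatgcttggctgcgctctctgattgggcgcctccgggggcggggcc
In MTHFD1L the copy TGATGCAA began 90 bases before this start and CACGTG 115 bases before it. The same TGATGCAA lay within 3 of the 4 entries of MTHFD1L, whose starts differ, and none of those 4 is the start of the transcript chosen as the gene's representative (MANE Select). In MTHFD1 the CACGTG began 15 bases before the start. The stretches of MTHFD2 and SHMT1 held neither motif. A part of either motif in the changes of these genes was not tested.

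Levels are given as FPKM, the number of fragments divided by gene length and by library depth. Each value corresponded to a whole number of fragments, and libraries held 29621270 (12 h, replicate 1) to 36261546 (12 h, replicate 2) fragments. The HepG2 label was checked on liver markers, and all 8 were expressed, with a summed level of 7381 to 7481 FPKM in the controls, 6473 to 6539 at 12 h and 6258 to 6581 at 24 h. Of 10 markers of other cell types, 8 have a value here, and PTPRC and CD3E do not. Their sum was 807 to 824 FPKM in the controls, 577 to 617 at 12 h and 782 to 830 at 24 h, most of it LYZ. COL1A1, COL3A1 and VWF stayed under 0.1 FPKM in every library, with COL1A1 at 0 in all 3 libraries with Gln added and COL3A1 at 0 in all 3 at 12 h. The part of these shifts in the results below was not tested. In bulk RNA a change in RNA per cell and a change in the number of cells expressing a gene cannot be told apart.

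Under Gln deprivation 7 of the 9 enzymes rose and 2 fell, at 12 h and again at 24 h. All 3 serine synthesis enzymes and all 4 mitochondrial folate enzymes rose, and the 2 that fell were the cytosolic folate enzymes SHMT1 and MTHFD1. In every one of the 9 genes the 3 libraries with Gln added stood apart from all 6 deprived libraries. Such a separation was common, since 28.5% of the genes tested had all deprived libraries above the controls and 28.3% had all of them below. Differences were tested by limma on log2(FPKM + 0.1) across the 11880 genes whose mean over all 9 libraries reached 0.5 FPKM. All 9 enzymes were among them. Benjamini-Hochberg adjustment was over those genes, with a threshold of 0.05. Changes were widespread in these cells. At 12 h 29.1% of tested genes were called higher and 31% lower, and at 24 h 33% were called higher and 31.7% lower, so the counts of 7 and 2 stand against that background. The median log2 fold change of the 9 was 0.94 at 12 h and 1.05 at 24 h, against -0.02 and 0.01 over all tested genes. Both times share the libraries with Gln added and are not independent of each other. The labels give no time for those controls, so time in culture and time without Gln cannot be told apart.

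**Figure D1:**
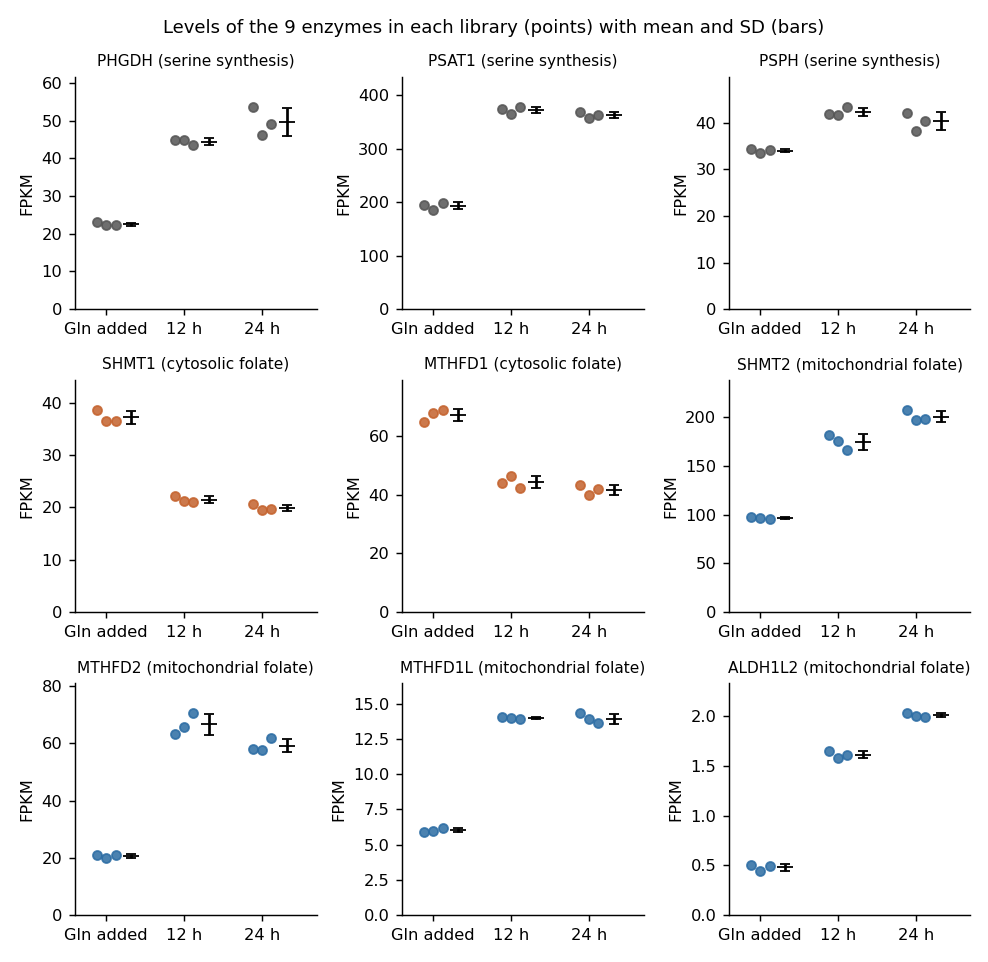
FPKM of each of the 9 enzymes (vertical axis, from 0) in each library (points, 3 per group), with the group mean and SD as black bars. The serine synthesis enzymes (grey) and mitochondrial folate enzymes (blue) were higher in all 6 deprived libraries than in any library with Gln added, and SHMT1 and MTHFD1 (orange) were lower in all 6.

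PHGDH, the entry enzyme of serine synthesis, measured 23.0, 22.4 and 22.2 FPKM with Gln added, 45.0, 44.9 and 43.5 at 12 h and 53.6, 46.3 and 49.2 at 24 h. The groups did not overlap, and the widest spread was at 24 h, where replicate 1 stood highest. The change by limma was 0.98 ± 0.05 (log2 fold change ± SE, 1.97-fold, adjusted p = 7.21e-08) at 12 h and 1.13 ± 0.05 (2.19-fold, adjusted p = 1.47e-08) at 24 h.

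PSAT1, the glutamate-using aminotransferase, had the highest deposited FPKM of the 9 in every library. Its values were 195, 186 and 199 FPKM with Gln added, 374, 365 and 377 at 12 h and 369, 357 and 363 at 24 h. The 2 deprived groups overlapped each other and both lay far above the controls. PSAT1 rose by 0.94 ± 0.03 on the log2 scale at 12 h (limma, adjusted p = 5.74e-09) and by 0.91 ± 0.03 at 24 h (adjusted p = 4.71e-09).

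PSPH, the phosphatase that completes the pathway, moved least. It was measured at 34.3, 33.6 and 34.1 FPKM with Gln added, 41.8, 41.8 and 43.3 at 12 h and 42.2, 38.4 and 40.4 at 24 h. The lowest deprived library, 24 h replicate 2, was still above the highest control. The log2 fold change was 0.31 ± 0.04 at 12 h (1.24-fold, limma, adjusted p = 6.24e-05) and 0.24 ± 0.04 at 24 h (1.18-fold, adjusted p = 3.13e-04).

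Among the mitochondrial folate enzymes, SHMT2 had the highest level. SHMT2 was at 97.4, 96.8 and 95.6 FPKM with Gln added, 182, 175 and 166 at 12 h and 207, 197 and 198 at 24 h. Each deprived group was clear of the controls and the 24 h libraries were all above those at 12 h. The log2 fold change was 0.85 ± 0.04 at 12 h (limma, adjusted p = 2.93e-08) and 1.05 ± 0.04 at 24 h (adjusted p = 4.01e-09).

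MTHFD2, the mitochondrial dehydrogenase and cyclohydrolase, showed the largest log2 fold change of the 9 at 12 h on the log2(FPKM + 0.1) scale. The ratio of mean FPKM at 12 h was larger for ALDH1L2, at 3.36 against 3.23 for MTHFD2. MTHFD2 was at 21.0, 19.8 and 21.1 FPKM with Gln added. It was at 63.5, 65.9 and 70.6 FPKM at 12 h and 58.0, 57.7 and 61.9 at 24 h. The 24 h libraries were thus a little below those at 12 h and far above the controls. MTHFD2 rose by 1.69 ± 0.05 at 12 h (3.22-fold, limma, adjusted p = 1.03e-09) and by 1.52 ± 0.05 at 24 h (2.86-fold, adjusted p = 1.53e-09).

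MTHFD1L, the mitochondrial formate-releasing synthetase, was at 5.89, 5.95 and 6.16 FPKM with Gln added. It reached 14.1, 14.0 and 13.9 FPKM at 12 h and 14.3, 13.9 and 13.6 at 24 h. The values at 12 h lay within the range of those at 24 h, far above the controls. The log2 fold change was 1.21 ± 0.04 at 12 h (2.31-fold, limma, adjusted p = 3.24e-09) and 1.20 ± 0.04 at 24 h (2.30-fold, adjusted p = 2.17e-09).

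ALDH1L2, the mitochondrial formyl-tetrahydrofolate dehydrogenase, had the lowest FPKM of the 9. It measured 0.505, 0.439 and 0.497 FPKM with Gln added, 1.65, 1.58 and 1.61 at 12 h and 2.03, 2.00 and 2.00 at 24 h, values that rest on 126 to 148 fragments in a control and 401 to 597 in a deprived library. The 3 groups did not overlap. The ALDH1L2 mean with Gln added, 0.480 FPKM, was below the 0.5 FPKM filter. The gene passed on the mean over all 9 libraries, through its deprived groups. With no filter its calls against Gln added held. The log2 fold change was 1.56 ± 0.09 at 12 h (limma, adjusted p = 2.24e-07) and 1.86 ± 0.09 at 24 h (adjusted p = 3.87e-08), the largest of the 9 at 24 h. Because 0.1 was added before the logarithm, the corresponding folds of 2.96 at 12 h and 3.64 at 24 h are smaller than the ratios of the mean FPKM, which were 3.36 and 4.19.

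In the cytosol, SHMT1 measured 38.5, 36.5 and 36.5 FPKM with Gln added, 22.2, 21.3 and 21.0 at 12 h and 20.6, 19.5 and 19.6 at 24 h. All deprived libraries were below all controls. The log2 fold change was -0.79 ± 0.04 at 12 h, which is 0.579 of the level with Gln added (limma, adjusted p = 8.38e-08). At 24 h it was -0.90 ± 0.04, 0.536 of that level (adjusted p = 1.93e-08).

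MTHFD1, the cytosolic enzyme with all 3 folate-interconverting activities, was at 65.0, 67.8 and 68.9 FPKM with Gln added. It was at 44.0, 46.6 and 42.4 FPKM at 12 h and 43.3, 39.9 and 42.0 at 24 h. Its groups under deprivation overlapped each other but not the controls. MTHFD1 changed by -0.60 ± 0.05 on the log2 scale at 12 h (0.660 of the control level, limma, adjusted p = 1.37e-06) and by -0.69 ± 0.05 at 24 h (0.621 of it, adjusted p = 3.32e-07).

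**Figure D2:**
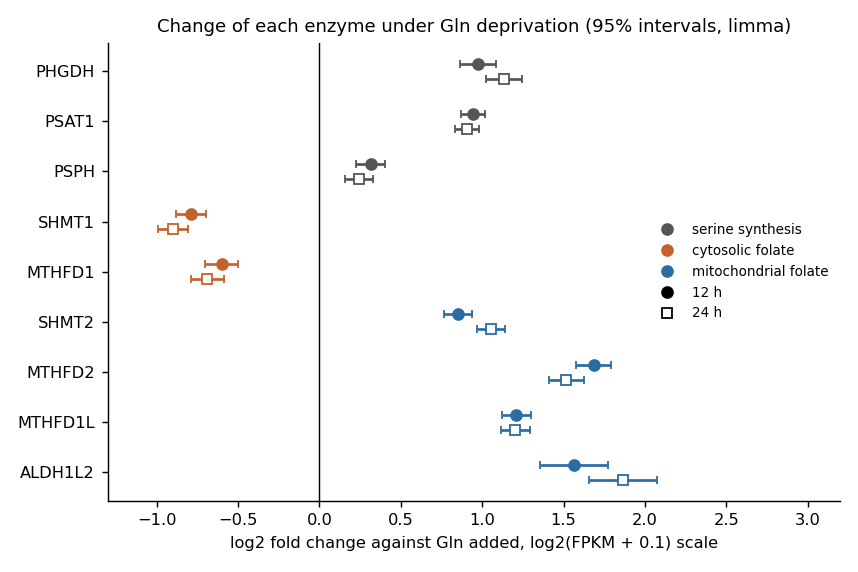
Log2 fold change of each enzyme against Gln added on the log2(FPKM + 0.1) scale (horizontal axis), at 12 h (filled circles) and 24 h (open squares), with 95% intervals from limma over 3 libraries per group. Grey marks serine synthesis, orange cytosolic folate and blue mitochondrial folate enzymes, and SHMT1 and MTHFD1 are the only ones left of 0.

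Ranked by log2 fold change among the 11880 tested genes, MTHFD2 was 53 from the top at 12 h and ALDH1L2 was 70. At 24 h ALDH1L2 was 57 from the top and MTHFD2 was 118. Over both times MTHFD1L, PHGDH, PSAT1 and SHMT2 ranked between 154 and 495, while PSPH ranked 2304 at 12 h and 3431 at 24 h. SHMT1 was 494 from the bottom at 12 h and 456 at 24 h, and MTHFD1 was 979 and 866. The members thus ranged from MTHFD2 and ALDH1L2 at the upper end to SHMT1 and MTHFD1 at the lower end, with PSPH in the bulk of genes between them.

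**Figure D3:**
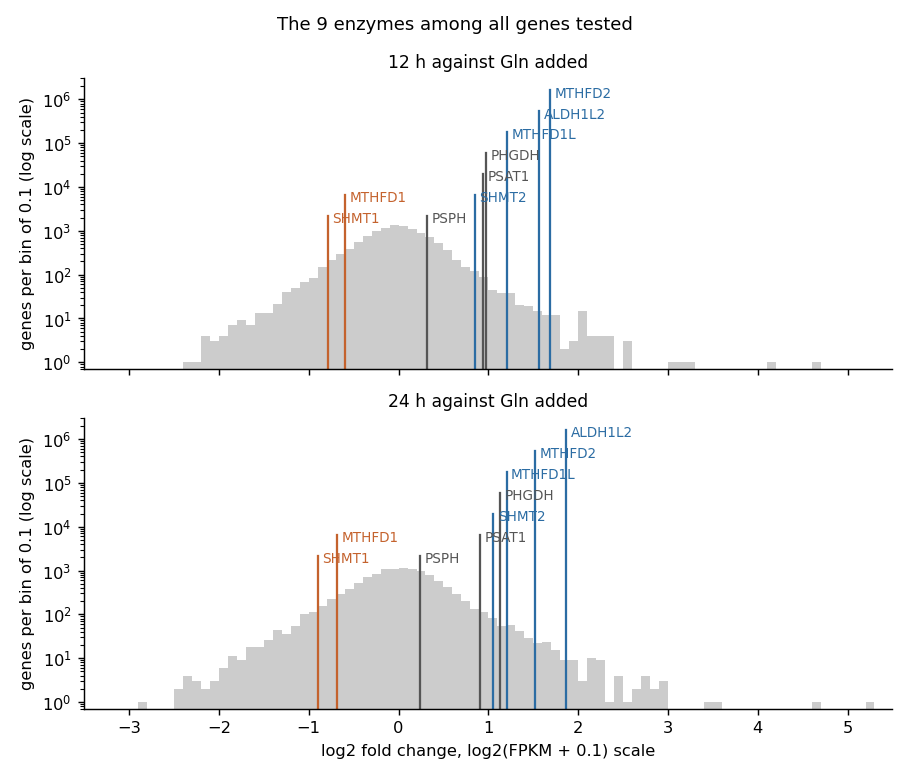
Number of tested genes in each bin of 0.1 of log2 fold change (grey bars, log scale) at 12 h (top) and 24 h (bottom), with each of the 9 enzymes as a coloured line (grey serine synthesis, orange cytosolic folate, blue mitochondrial folate; line height has no meaning). PSPH lies in the bulk of genes, and the other 6 that rose lie in the upper tail.

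Between 12 h and 24 h the members differed from each other. At this step 9.57% of tested genes were called higher and 10.5% lower, and 3 members were called higher, 1 lower and 5 neither. The libraries at 24 h lay wholly above those at 12 h in 17.5% of tested genes and wholly below in 16.9%, against 3 and 2 of the members. SHMT2 was higher at 24 h than at 12 h by 0.20 ± 0.04 on the log2 scale (limma, adjusted p = 0.00487), and this call held under every alternative setting tried. ALDH1L2 was higher by 0.30 ± 0.09 (limma, adjusted p = 0.0462) and PHGDH by 0.16 ± 0.05 (adjusted p = 0.0490), whereas MTHFD2 was lower, at -0.17 ± 0.05 (adjusted p = 0.0321). These 3 calls lay close to the threshold and were lost under several settings, with adjusted p of 0.0547 to 0.120 for ALDH1L2, 0.0699 to 0.120 for PHGDH and 0.0584 to 0.0881 for MTHFD2 in limma. The PHGDH call was lost without any library but 24 h replicate 2, and its difference was 0.10 (adjusted p = 0.105) without 24 h replicate 1, the highest PHGDH library. The ALDH1L2 call was lost without any library but replicate 2 with Gln added, with differences between 0.29 and 0.31. The MTHFD2 call was lost without replicates 2 or 3 at 12 h or replicates 1 or 2 at 24 h, and its difference was -0.13 (adjusted p = 0.0867) without 12 h replicate 3, the highest MTHFD2 library.

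The 5 others did not pass the test between the times. Their 24 h minus 12 h differences on the log2 scale, with unadjusted 95% intervals, were -0.11 (-0.20 to -0.02) for SHMT1, -0.09 (-0.19 to 0.01) for MTHFD1, -0.07 (-0.16 to 0.02) for PSPH, -0.04 (-0.11 to 0.04) for PSAT1 and -0.01 (-0.10 to 0.08) for MTHFD1L. The 3 SHMT1 libraries at 24 h were nevertheless all below those at 12 h, with an adjusted p of 0.0853 from limma, and after median-ratio scaling SHMT1 passed the test at -0.15 (adjusted p = 0.0359). The scaling between libraries matters for such small differences. Of the calls between the times, 47.7% were in the direction of 24 h with the values as deposited. Median-ratio scaling lowered this share to 33.4%, and equal FPKM totals raised it to 54.3%.

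The mitochondrial and cytosolic isoforms of the same reaction were compared within each library, where scaling between libraries cancels. SHMT2 over SHMT1, the serine hydroxymethyltransferases, was 2.53, 2.65 and 2.62 in FPKM with Gln added, 8.20, 8.25 and 7.93 at 12 h and 10.1 in each of the 3 libraries at 24 h. The 3 groups were well apart. The log2 ratio was 1.38 ± 0.04 (SD, n = 3) in the controls, 3.02 ± 0.03 at 12 h and 3.34 ± 0.0027 at 24 h. It was thus 1.64 higher at 12 h (95% interval 1.59 to 1.70) and 1.96 higher at 24 h (1.90 to 2.01) than with Gln added.

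MTHFD2 over MTHFD1, the dehydrogenase and cyclohydrolase step, crossed from below 1 to above it. The FPKM ratio was 0.323, 0.292 and 0.306 with Gln added, 1.44, 1.41 and 1.66 at 12 h and 1.34, 1.45 and 1.47 at 24 h. In the controls MTHFD2 made up 23.5% ± 0.904 (SD, n = 3) of the summed level of both, and under deprivation 60.0% ± 2.12 at 12 h and 58.7% ± 1.21 at 24 h. The log2 ratio rose by 2.29 (95% interval 2.10 to 2.48) at 12 h and 2.21 (2.02 to 2.40) at 24 h.

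MTHFD1L over MTHFD1, the formate-tetrahydrofolate synthetases, was 0.0906, 0.0878 and 0.0895 in FPKM with Gln added. The ratio was 0.320, 0.301 and 0.328 at 12 h and 0.331, 0.349 and 0.324 at 24 h, so the deprived groups overlapped each other and were far from the controls. The log2 ratio rose by 1.82 (95% interval 1.72 to 1.92) at 12 h and 1.91 (1.81 to 2.01) at 24 h. This ratio shares MTHFD1 with the preceding one and the pair are not independent.

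ALDH1L2 over ALDH1L1 was the least precise ratio, because ALDH1L1 was barely detected. ALDH1L1 measured 0.257, 0.286 and 0.197 FPKM with Gln added, 0.237, 0.238 and 0.172 at 12 h and 0.226, 0.130 and 0.170 at 24 h, values that rest on only 16 to 37 fragments each. Its groups overlapped, and it fell below the filter on low values. With no filter its log2 fold change was -0.13 (95% interval -0.55 to 0.28) at 12 h and -0.34 (-0.76 to 0.08) at 24 h by limma. The ALDH1L2 over ALDH1L1 ratio was 1.54 to 2.52 with Gln added, 6.65 to 9.36 at 12 h and 8.99 to 15.4 at 24 h. On the log2 scale it rose by 1.94 (95% interval 1.26 to 2.63) at 12 h and 2.58 (1.90 to 3.26) at 24 h.

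Taking both times together, all 4 ratios were higher in the 6 deprived libraries than in the 3 with Gln added. The log2 difference was 1.80 for SHMT2 over SHMT1, 2.25 for MTHFD2 over MTHFD1, 1.86 for MTHFD1L over MTHFD1 and 2.26 for ALDH1L2 over ALDH1L1. The two-sided exact permutation test gave p = 0.0238 for each, adjusted over the 4 pairs p = 0.0238, which is the smallest p that 6 libraries against 3 allow. For all 4 pairs this outcome was fixed beforehand, so the test adds no support. In the pairs over SHMT1 and MTHFD1 the single genes had already separated in opposite directions in all 6 deprived libraries. In the remaining pair ALDH1L2 was at most 0.505 FPKM in the controls and at least 1.58 under deprivation. ALDH1L1 stayed within 0.130 to 0.286 FPKM, too narrow a range to undo that separation. With 1 FPKM added to both isoforms the difference of ALDH1L2 over ALDH1L1 shrank to 0.98, with the same p. Between 24 h and 12 h the exact test of 3 libraries against 3 cannot go below 0.1. That value was reached by SHMT2 over SHMT1, which was 0.31 higher at 24 h (95% interval 0.26 to 0.37). The difference was -0.08 (-0.27 to 0.11) for MTHFD2 over MTHFD1, 0.08 (-0.02 to 0.18) for MTHFD1L over MTHFD1 and 0.64 (-0.05 to 1.32) for ALDH1L2 over ALDH1L1, with exact p of 0.6, 0.2 and 0.2. Adjusted over the 4 pairs, the exact p was 0.267 for each pair but MTHFD2 over MTHFD1, at 0.6.

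**Figure D4:**
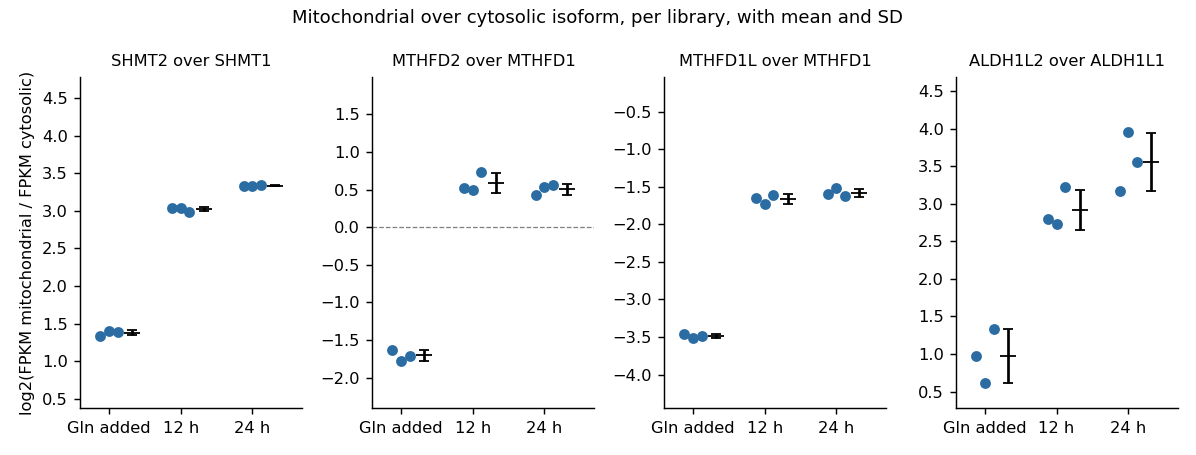
Log2 ratio of FPKM of the mitochondrial to the cytosolic isoform (vertical axis) in each library (points, 3 per group), with group mean and SD as black bars, for 4 pairs. Each panel spans the same height in log2 units, the dashed line marks equal FPKM where it falls within the panel, and in each pair all 6 deprived libraries are above all 3 with Gln added.

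Summed over their members, the serine synthesis enzymes were at 242 to 256 FPKM with Gln added and 442 to 465 FPKM under deprivation. The 4 mitochondrial folate enzymes summed to 123 to 125 FPKM in the controls, 252 to 261 at 12 h and 271 to 282 at 24 h. SHMT1 and MTHFD1 together went the other way, with 104 to 105 FPKM in the controls, 63.4 to 67.8 at 12 h and 59.4 to 63.8 at 24 h. The ratio of the mitochondrial to the cytosolic sum was 1.17 to 1.21 with Gln added, 3.79 to 3.98 at 12 h and 4.41 to 4.56 at 24 h. PSAT1 makes up most of the serine synthesis sum, SHMT2 most of the mitochondrial sum and MTHFD1 most of the cytosolic sum.

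Comparisons of level between genes depend on the gene length used for FPKM. The lengths behind the deposited values were 7645 bases for PHGDH and 13295 for MTHFD1L, which are 4.10 and 3.85 times the lengths of their MANE Select transcripts in GENCODE v44. For PSPH the length was 1.70 times and for SHMT2 1.24 times that of the transcript. With MANE Select lengths MTHFD1L over MTHFD1 would be 0.344 in the controls, 1.22 at 12 h and 1.29 at 24 h in place of 0.0893, 0.316 and 0.335, and SHMT2 over SHMT1 would be 3.02 with Gln added in place of 2.60. Ratios of FPKM between groups do not depend on the length when it is the same in all libraries. Changes on the log2(FPKM + 0.1) scale depend on it through the added 0.1, most where FPKM is low.

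With FPKM as deposited, the order of levels with Gln added was PSAT1, SHMT2, MTHFD1, SHMT1, PSPH, PHGDH, MTHFD2, MTHFD1L and ALDH1L2, and no neighbours in that order overlapped. Under deprivation MTHFD2 came after SHMT2 and SHMT1 dropped to the position before MTHFD1L, at both times. PHGDH, MTHFD1 and PSPH then formed a middle group. In it PHGDH and MTHFD1, and MTHFD1 and PSPH, overlapped at 12 h, and MTHFD1 and PSPH overlapped at 24 h. All these positions rest on the deposited lengths, which for PHGDH, MTHFD1L and PSPH are 4.10, 3.85 and 1.70 times those of MANE Select. The order was not recomputed with MANE Select lengths and may differ with them.

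Shared sequence could affect some of these values. If counting ignored strand, fragments from overlapping exons of genes on the opposite strand could not be told apart, and the setting is not given in the sources used here. Such exons cover 14.2% of the annotated exonic bases of MTHFD2, 11.1% of MTHFD1 and 8.38% of SHMT2. The partners with a symbol, SLC4A5, ZBTB25 and NDUFA4L2, stayed at or below 0.125, 0.806 and 0.740 FPKM. Partners without a symbol also lie in these overlaps, and their levels were not looked up. SHMT1 shares 2.81% with SMCR8, which was at 6.40 to 6.80 FPKM with Gln added and 9.47 to 11.0 under deprivation while SHMT1 fell, and ALDH1L2 shares 2.91% with WASHC4 and NOPCHAP1, of which WASHC4 was at 9.09 to 11.5 FPKM. GENCODE v44 also lists processed or other pseudogenes by name for PSAT1 (4), PSPH (1), SHMT1 (1), MTHFD1 (1) and MTHFD2 (7), none with a value of its own here, so these levels carry an uncertainty from near-identical copies.

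The other genes of the pathway, from lists chosen with earlier results of these data known, are counted here for 24 h, when 33% of all tested genes were called higher and 31.7% lower, with a median log2 fold change of 0.01. Of 8 other mitochondrial folate and glycine enzymes tested, 7 fell, against that 31.7%, with a median log2 fold change of -0.66 over the 8. GLDC, the glycine decarboxylase of the glycine cleavage system, showed the largest fall, at -1.36 ± 0.04 (limma, adjusted p = 1.42e-09) at 24 h. MTHFD2L, the paralog of MTHFD2, did not pass the test, at 0.18 (95% interval -0.07 to 0.43, adjusted p = 0.183).

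SLC25A32, the mitochondrial folate carrier, rose by 0.40 ± 0.07 at 24 h (limma, adjusted p = 7.53e-04). Among 5 tested cytosolic folate enzymes outside the members, 2 rose and 3 fell at 24 h, against 33% and 31.7% of all tested genes. GART, which takes formyl units into purines, rose by 0.48 ± 0.04 (limma, adjusted p = 1.38e-06), and TYMS, the thymidylate synthase, changed by -0.90 ± 0.03 (adjusted p = 4.15e-09).

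Of 10 tested genes of the methionine cycle and methyl supply, 1 rose and 6 fell at 24 h, where 33% and 31.7% of all tested genes did. MAT2A, which makes S-adenosylmethionine, rose by 0.22 ± 0.04 (limma, adjusted p = 3.13e-04), while BHMT, which remethylates homocysteine with betaine in liver, changed by -1.66 ± 0.06 (adjusted p = 2.16e-09). Of 15 tested genes of serine and glycine transport and use, 8 were higher and 7 lower at 24 h, beside the same 33% and 31.7%. SLC6A9, the glycine transporter GlyT1, rose by 2.15 ± 0.04 (limma, adjusted p = 1.01e-10), and SFXN3, a mitochondrial serine carrier, changed by -0.85 ± 0.04 (adjusted p = 3.27e-08).

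ATF4 and its targets outside the pathway were also counted. All 14 tested genes of this list rose at both times, against 29.1% of all tested genes at 12 h and 33% at 24 h, with a median log2 fold change of 1.41 at 12 h and 1.45 at 24 h, but the list was chosen with their rise already known and is not independent evidence of it. ATF4 mRNA rose by 0.88 ± 0.03 at 12 h and 0.85 ± 0.03 at 24 h (limma, adjusted p = 7.51e-09 and 5.92e-09). ASNS, the asparagine synthetase, rose by 2.74 ± 0.13 at 24 h (adjusted p = 3.33e-08), and TRIB3, a pseudokinase, by 1.96 ± 0.05 (adjusted p = 1.86e-10).

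**Figure D5:**
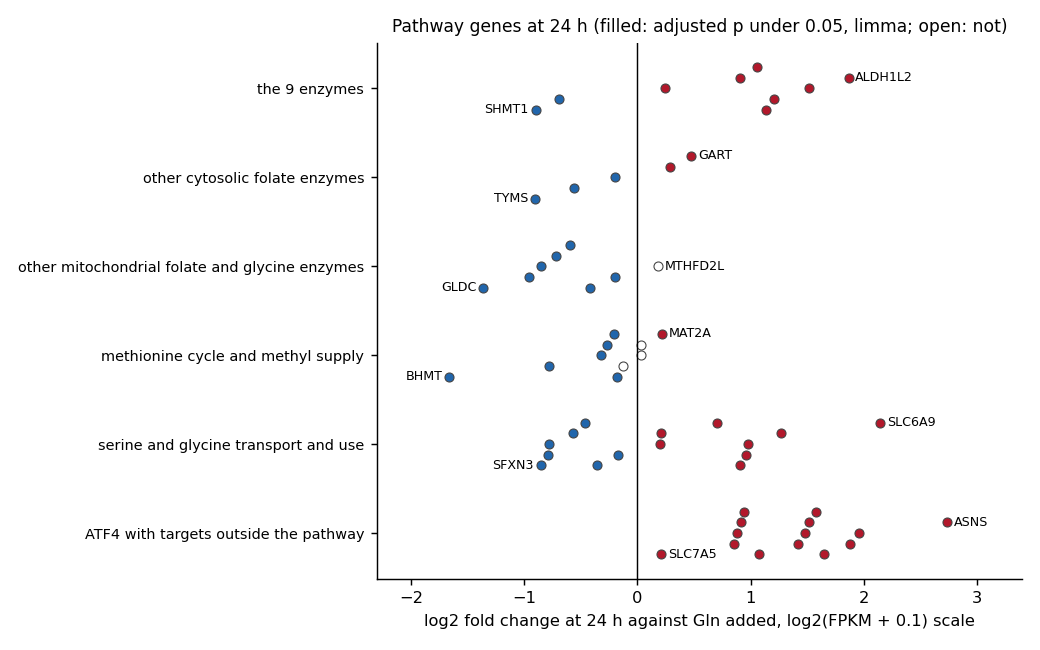
Log2 fold change at 24 h against Gln added on the log2(FPKM + 0.1) scale (horizontal axis) of the tested genes of 6 lists (rows; points are offset vertically only to separate them), filled where the adjusted p from limma is under 0.05 (red higher, blue lower) and open where it is not. The lowest and highest gene of each row are named, and the ATF4 list lies wholly to the right of 0 while 7 of the 8 other mitochondrial enzymes lie to the left.

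MTHFD2 was the member with the largest change at 12 h on the log2(FPKM + 0.1) scale. The genes most like it in pattern were XPOT, a tRNA exporter (Pearson r = 0.998), and CEBPG, a bZIP transcription factor (r = 0.998). EIF3A, a subunit of a translation initiation factor, came next (r = 0.998). The likeness was measured on log2(FPKM + 0.1) over the 9 libraries among 5104 genes whose mean reached 10 FPKM. The points share 3 treatment groups, and 512 of these genes had r over 0.95, so many genes share the step between the controls and the deprived libraries. XPOT changed by 1.19 and 1.10 on the log2 scale at 12 h and 24 h, CEBPG by 1.12 and 1.00, and EIF3A by 0.76 and 0.69, each less than the 1.69 and 1.52 of MTHFD2.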

How the data were processed

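RNA-seq of 9 HepG2 libraries in 3 groups of 3 was analysed. The authors deposited FPKM per gene. The methods describe strand-specific libraries, alignment to GRCh38 with STAR and tests with DESeq2, whereas the labels name another library kit, and the submitters' processing notes list GRCh38, HTSeq and R 3.2.0. The annotation and strand setting of the counting are not given in the sources used here, and no scaling between libraries beyond FPKM is stated.

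Values were tested with limma 3.58.1 in R 4.3.3 (lmFit, and eBayes with its trend option) on log2(FPKM + 0.1). Genes whose mean did not reach 0.5 FPKM were left out, and the fit held all 3 groups. The change of genes near 0.1 FPKM is understated on this scale. Because the values are FPKM and not counts, no count model was the main test. Whole fragments were recovered from the steps of the values for 100% of genes (tolerance 0.02), which gave the depth. Isoform ratios were compared by two-sided exact permutation tests (scipy 1.17.1), with 95% intervals from the pooled SD on 6 degrees of freedom. Scripts were tested on simulated data. Replicates of each group differed by more than sampling noise.

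The 9 enzymes and all gene lists were chosen with earlier results of these data known. Genes outside the members were named by rule, as the largest called rise and fall at 24 h of each list plus ATF4 and TRIB3. The rule also took the 3 genes most like the member with the largest log2 fold change at 12 h. Of the list of folate uptake, retention and reduction, only SLC25A32 is reported here. MTHFD2L, genes on opposite strands and markers were named after their values were seen. The alternatives were pseudocounts of 1 and 0.01, a filter at 1 FPKM and none, 2 other scalings, a fit of only the compared groups, a block for the replicate number, eBayes with no trend, each of the libraries omitted, and voom on the recovered fragments. MANE Select lengths were added after the data were seen. Figures were drawn with matplotlib 3.10.9.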

Additional observations from a re-analysis of the deposited data

Results flagged for a closer look

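By a direct test 4 of the 9 enzymes differed in level between 12 h and 24 h of deprivation. At 24 h 3 of them were higher and 1 lower, against 9.57% higher and 10.5% lower of all genes tested. With no controls of known time, time in culture cannot be told apart from time without Gln here. The log2 difference between 24 h and 12 h was 0.20 for SHMT2, 0.30 for ALDH1L2, 0.16 for PHGDH and -0.17 for MTHFD2, with adjusted p of 0.00487, 0.0462, 0.0490 and 0.0321 from limma. In each of these genes, and in SHMT1, which did not pass the test, the 3 libraries at 24 h did not overlap the 3 at 12 h, as in 17.5% (above) and 16.9% (below) of all genes tested. The difference kept its direction under all 19 alternatives in each of the 4 genes and its significance under all of them for SHMT2 only.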

How the results depend on the processing

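Every one of the 342 recomputed values of the 9 enzymes against Gln added kept its direction and its side of the threshold under the 19 alternatives, and so did 135 of 171 between 24 h and 12 h. The calls lost between the times are those of PHGDH, MTHFD2 and ALDH1L2 given in the report. MTHFD1L, which did not pass the test between the times, turned from -0.01 to 0.0086 with FPKM rescaled to the same total and to 0.012 without 24 h replicate 3, with a range of -0.025 to 0.012 over the omitted libraries. The isoform ratios against Gln added kept their direction throughout. For 12 h alone the differences were 1.64 for SHMT2 over SHMT1, 2.29 for MTHFD2 over MTHFD1, 1.82 for MTHFD1L over MTHFD1 and 1.94 for ALDH1L2 over ALDH1L1, and for 24 h alone 1.96, 2.21, 1.91 and 2.58, where an exact p cannot go below 0.1. Leaving out each library gave 1.77 to 1.84, 2.21 to 2.29, 1.84 to 1.89 and 2.08 to 2.44, with an exact p of 0.0357 without a deprived library and of 0.0714, the smallest possible, without a library with Gln added.

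Whether replicate numbers pair the libraries is not stated in the labels. Of 9 same-numbered pairs 2 correlated above 0.1 (r from -0.136 to 0.283), and 3 libraries correlated best with their own number. With so few libraries per group this does not settle it. With the replicate number as a block the ratio differences were 1.80, 2.25, 1.86 and 2.26 with an exact p of 0.0741, the smallest possible, and counts of called genes were 7341 at 12 h, 7802 at 24 h and 2586 between the times, against 7147, 7686 and 2386 without it. Under the block the difference of SHMT1 between the times passed (adjusted p = 0.0379 by limma) and that of ALDH1L2 did not (0.0621). Voom on recovered fragments called 7312, 7857 and 2640 genes. Gene lengths from MANE Select moved the FPKM ratio with Gln added to 3.02 for SHMT2 over SHMT1 and to 0.344 for MTHFD1L over MTHFD1. Depth limits ALDH1L1 most, at 16 to 37 fragments per library, and with it the ratio of ALDH1L2 over ALDH1L1.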
